A study of Homo sapiens with 6 samples.

Results

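The aldo-keto reductases are a family of NADPH-dependent enzymes that reduce aldehydes and ketones to alcohols. Those examined here were 10 genes listed by symbol, AKR1A1, AKR1B1, AKR1B10, AKR1C1, AKR1C2, AKR1C3, AKR1C4, AKR1D1, AKR7A2 and AKR7A3, read through every probe set that the platform annotation gives to that symbol alone. Of the 10 genes, 8 had such a probe set, out of 11963 genes with one in all. They had 13 probe sets, 3 for AKR1C1, 2 each for AKR1C2, AKR7A2 and AKR7A3, and 1 each for AKR1B10, AKR1C3, AKR1C4 and AKR1D1. The expression of AKR1A1 and AKR1B1 was not analysed here, since no probe set in the annotation used carried either symbol alone.

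RNA came from SUM44, a human breast cancer line of invasive lobular origin labelled positive for the estrogen and progesterone receptors, and from LCCTam, a variant of SUM44 that resists the antiestrogen tamoxifen. The SUM44 samples were taken at passages 74, 75 and 76, those of LCCTam at passages 8, 9 and 10, and each passage had 1 Affymetrix array, which makes 3 arrays a line. Both grew in SFIH, a Ham's F12 medium, and LCCTam also received 500 nM 4-hydroxytamoxifen, the active metabolite of tamoxifen, so line and drug cannot be told apart. Each line is a single line, and nothing in the labels says that its passages were separate cultures, so p-values measure only the spread between these samples.

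Values are log2 expression after RMA, a method that corrects background, aligns the arrays and summarises the probes of a set, and 1 unit is a 2-fold difference. Array medians were between 5.92 and 5.97. The array of LCCTam passage 10 stood apart in RNA quality measures. Its signal from the 3' end of the actin control exceeded that from the 5' end by 1.92, while the remaining arrays lay between 0.90 and 1.15, and for GAPDH by 0.61, with the remaining arrays between 0.09 and 0.31. Its 75th percentile, 7.50, was the lowest of the 6. Of 11 luminal epithelial markers the median level was between 11.37 and 12.55 on each array, against 4.88 to 5.45 for 12 fibroblast markers and 4.79 to 5.11 for 11 leukocyte and endothelial markers. Of the luminal markers 1 passed the test between the lines. It was ESR1, the estrogen receptor, at 12.49, 12.79 and 12.93 in SUM44 and 11.14, 10.94 and 11.17 in LCCTam, which fell by 1.65 on the log2 scale (limma adjusted p = 0.00172). COL3A1, a collagen of fibroblasts, was the 1 fibroblast marker that passed the test between the lines. It was at 8.23, 8.74 and 8.96 in SUM44 passages 74, 75 and 76 and at 3.98 to 4.36 in LCCTam on its brightest probe set, while a set without a cross-hybridization suffix differed by only 0.020. The part of ESR1 and COL3A1 in the results below was not tested.

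Enzymes of the AKR1C group are ketosteroid reductases, and in breast they act on progesterone, androgens and estrogens and so set how much active hormone reaches its receptor. AKR1C1 is known for turning progesterone into a weaker progestin and AKR1C2 for inactivating dihydrotestosterone. AKR1C3 makes testosterone and estradiol from weaker precursors and is also a prostaglandin F synthase. AKR1C4 is chiefly a liver enzyme of bile acid and steroid metabolism, AKR1D1 is the steroid reductase of bile acid synthesis, AKR1B10 reduces retinal and lipid aldehydes, and AKR7A2 and AKR7A3 reduce aflatoxin dialdehyde and related aldehydes. Several AKR1C genes and AKR1B10 are known targets of NRF2, the transcription factor of the oxidative stress response.

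AKR1C1 to AKR1C4 lie in 1 cluster on chromosome 10 and arose by duplication, which matters here because similar transcripts can bind the same probes. Probe sequences were not used, so which transcripts share probes was not examined. Likeness of the 4 genes is shown only on the DNA just before their start sites. Those bases lie ahead of the transcript, so their likeness does not show which probes are shared. Each line below gives the 250 bases upstream of a RefSeq start site, assembly GRCh38.p14, 5′ to 3′ on the gene's own strand. Capitals mark CCAAT, a common promoter motif, read on either strand (ATTGG on the strand printed). AKR1C3 has 2 start sites in the RefSeq promoter table.
AKR1C1, chr10:4963165-4963414, plus strand: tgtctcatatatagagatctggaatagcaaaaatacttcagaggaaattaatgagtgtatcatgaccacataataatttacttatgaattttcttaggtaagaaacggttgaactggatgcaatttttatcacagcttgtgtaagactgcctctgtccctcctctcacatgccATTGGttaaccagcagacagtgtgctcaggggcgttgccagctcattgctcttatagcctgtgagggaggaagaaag
AKR1C2, chr10:5003858-5004107, minus strand: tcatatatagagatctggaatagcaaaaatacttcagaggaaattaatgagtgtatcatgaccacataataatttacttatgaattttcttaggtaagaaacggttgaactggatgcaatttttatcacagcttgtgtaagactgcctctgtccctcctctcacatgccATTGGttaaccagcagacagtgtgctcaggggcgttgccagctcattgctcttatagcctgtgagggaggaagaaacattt
AKR1C3, chr10:5048531-5048780, plus strand: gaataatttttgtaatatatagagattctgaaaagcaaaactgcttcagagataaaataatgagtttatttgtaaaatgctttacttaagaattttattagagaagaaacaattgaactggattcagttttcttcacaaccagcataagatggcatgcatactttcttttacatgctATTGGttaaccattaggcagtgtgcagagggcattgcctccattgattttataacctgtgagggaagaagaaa
AKR1C3, chr10:5094164-5094413, plus strand: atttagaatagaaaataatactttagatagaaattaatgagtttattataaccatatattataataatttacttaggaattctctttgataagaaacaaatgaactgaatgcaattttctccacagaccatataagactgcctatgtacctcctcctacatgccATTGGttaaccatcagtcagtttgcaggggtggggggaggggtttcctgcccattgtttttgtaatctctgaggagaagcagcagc
AKR1C4, chr10:5196587-5196836, plus strand: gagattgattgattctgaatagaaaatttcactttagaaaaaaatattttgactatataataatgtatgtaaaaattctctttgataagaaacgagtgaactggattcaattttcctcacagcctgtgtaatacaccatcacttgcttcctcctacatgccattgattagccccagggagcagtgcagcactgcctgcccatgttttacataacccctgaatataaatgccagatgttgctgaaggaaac

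The AKR1C1 and AKR1C2 windows were nearly the same sequence. They shared an unbroken run of 245 bases. In the global alignment used, opening a gap cost more than a mismatch and extending it cost less. By that alignment 245 of 246 aligned bases were identical, with 8 gap positions. The AKR1C3 windows matched that of AKR1C1 at 185 of 241 and at 185 of 234 aligned bases, with a longest shared run of 12 and 19 bases. The AKR1C4 window matched it at 164 of 231, with a longest run of 11. Gap positions numbered 18 and 32 for the AKR1C3 windows and 38 for AKR1C4. The letters CCAAT, on either strand, were present in the AKR1C1, AKR1C2 and both AKR1C3 windows, 73 to 86 bases before the start, and not in the AKR1C4 window, and 32.0% of the 35116 windows in the table held them. The core letters of the antioxidant response element that NRF2 binds (TGACNNNGC, either strand) were in none of these 5 windows and in 10.9% of all windows. Elsewhere in the family they were found 3 times in the AKR7A2 window, and again 3 times in the overlapping window of its other start site. The promoter table held windows for 9 of the 10 listed genes and none for AKR1B10, which was not searched. The AP-1 motif TGANTCA, which begins with the same 3 letters so that a sequence can hold both, was in none of the 5 and in 6.57% of all windows. These matches describe letters in short windows, and elements farther from the start were not searched.

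The family was chosen when the lower AKR1C1 and AKR1C2 values in LCCTam and at later SUM44 passages were already known. The values of its genes in these comparisons are therefore given as a description, with no test. In short, AKR1C1, AKR1C2 and AKR1C3 were lower in LCCTam and also at each later SUM44 passage. AKR1B10 shared the passage pattern but not a separation of the lines. AKR7A2 and AKR7A3 were higher in LCCTam, and AKR1C4 and AKR1D1 were dim throughout.

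**Figure D1:**
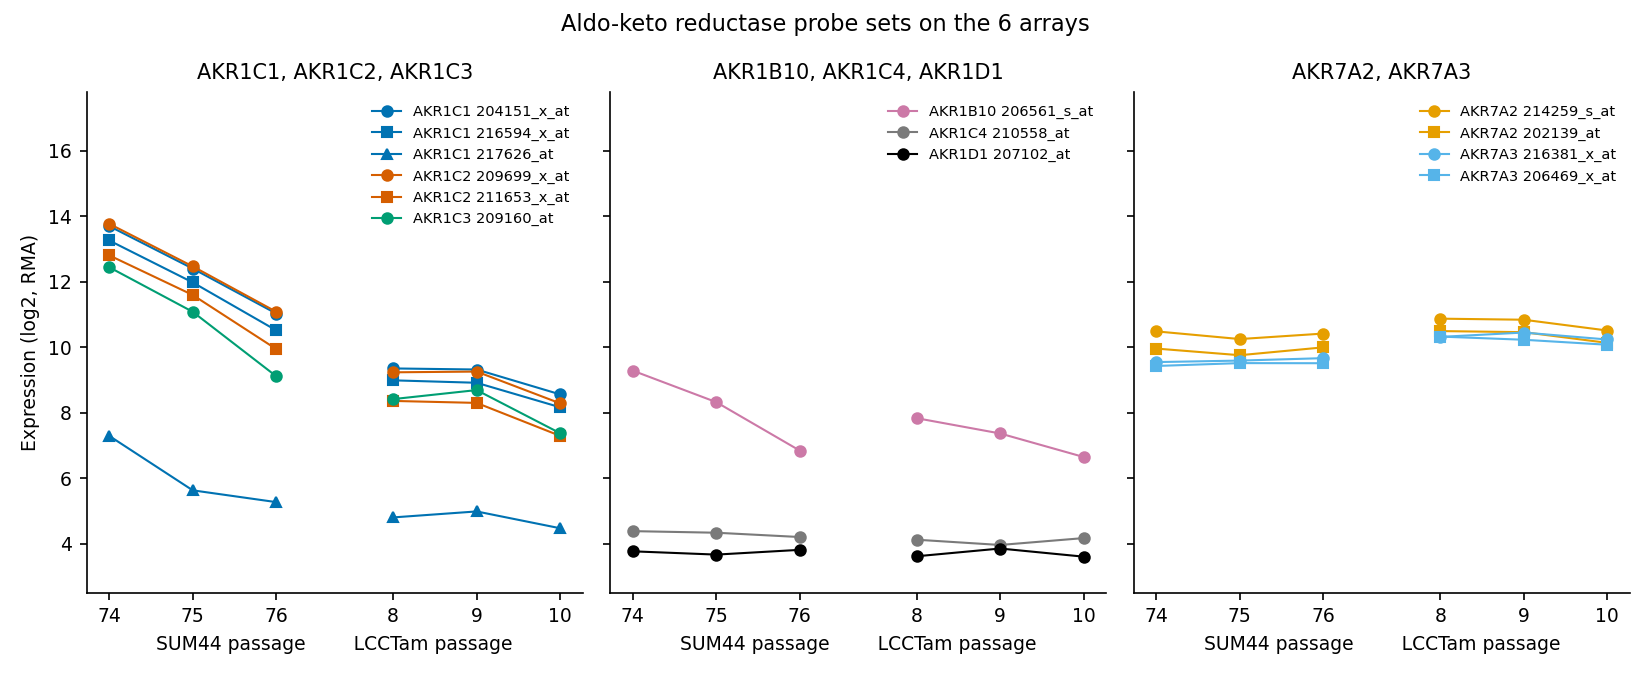
Log2 expression (vertical axis) of the 13 aldo-keto reductase probe sets on each array (horizontal axis, passage of SUM44 and then of LCCTam), 1 point per array, with lines joining the arrays of a line. The AKR1C1, AKR1C2 and AKR1C3 probe sets step down over SUM44 passages 74, 75 and 76 and lie lower in LCCTam, while the AKR7A2 and AKR7A3 probe sets lie higher in LCCTam.

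AKR1C1, the progesterone-inactivating enzyme, was read most brightly by probe set 204151_x_at, at 13.70, 12.41 and 11.03 in SUM44 passages 74, 75 and 76 and at 9.36, 9.32 and 8.56 in LCCTam passages 8, 9 and 10. Every SUM44 value lay above every LCCTam value, with 1.68 between the nearest pair. The line means were 12.38 ± 1.33 and 9.08 ± 0.45 (SD, n = 3 each), a difference of -3.30, or 9.85-fold lower in LCCTam. Its second probe set, 216594_x_at, followed the first within a root mean square distance of 0.05 after centring and differed by -3.23.

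The third AKR1C1 probe set, 217626_at, does not carry the suffix _x_at, which marks sets whose probes can match other transcripts. It was dimmer, at 7.29, 5.63 and 5.27 in SUM44 and 4.80, 4.99 and 4.47 in LCCTam. It showed the same order of lines, with a smaller difference of -1.31 and only 0.28 between the nearest values of the lines. Differences of dim probe sets can be compressed, and no detection calls were used here.

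AKR1C2, the dihydrotestosterone-inactivating enzyme, had values of 13.77, 12.47 and 11.09 in SUM44 and 9.24, 9.26 and 8.29 in LCCTam on probe set 209699_x_at. The lines did not overlap, and the means of 12.44 ± 1.34 and 8.93 ± 0.55 (SD, n = 3 each) differed by -3.52, or 11.4-fold. Probe set 211653_x_at differed by -3.47. All 4 bright probe sets of AKR1C1 and AKR1C2 carry the suffix _x_at, and centred values of the AKR1C2 sets stayed within a root mean square distance of 0.12 and 0.15 of the brightest AKR1C1 set. How much each of the 2 genes contributed to these 4 readings cannot be told apart.

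AKR1C3, the enzyme that makes testosterone and prostaglandin F, was read by 1 probe set without that suffix, 209160_at. Its values were 12.45, 11.09 and 9.12 in SUM44 and 8.42, 8.69 and 7.38 in LCCTam. The lines did not overlap, but SUM44 passage 76 lay only 0.42 above the highest LCCTam array. The means of 10.88 ± 1.67 and 8.16 ± 0.70 (SD, n = 3 each) differed by -2.72, or 6.59-fold. In bulk RNA such as this, fewer cells with a transcript and less of it per cell cannot be told apart.

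AKR1B10, the retinal and lipid aldehyde reductase, was at 9.29, 8.33 and 6.85 in SUM44 passages 74, 75 and 76 and at 7.84, 7.37 and 6.65 in LCCTam passages 8, 9 and 10. The lines overlapped, since SUM44 passage 76 lay below 2 of the 3 LCCTam arrays. The mean difference was -0.87, against SDs of 1.23 in SUM44 and 0.60 in LCCTam.

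AKR1C4 and AKR1D1, the steroid and bile acid enzymes known from liver, were dim on every array. AKR1C4 lay between 3.96 and 4.38 and AKR1D1 between 3.60 and 3.85, and their LCCTam means stood at percentiles 10.3 and 2.48 of all probe sets. Without detection calls these values do not tell whether either gene was expressed. AKR1C4 was lower by 0.03 or more on each LCCTam array than on any SUM44 array, with a mean difference of -0.22, and AKR1D1 overlapped between the lines.

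AKR7A3 was higher in LCCTam on both of its probe sets. Set 216381_x_at was at 9.55, 9.59 and 9.67 in SUM44 and 10.32, 10.45 and 10.24 in LCCTam, with no overlap. Means of 9.60 ± 0.06 and 10.34 ± 0.11 (SD, n = 3 each) differed by 0.73, or 1.66-fold, and set 206469_x_at differed by 0.73 as well. Both AKR7A3 sets carry the suffix _x_at and can also bind related transcripts.

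AKR7A2, which lies beside AKR7A3 on chromosome 1, was at 10.49, 10.25 and 10.42 in SUM44 and 10.88, 10.84 and 10.51 in LCCTam on set 214259_s_at. Its second set, 202139_at, was at 9.96, 9.76 and 10.00 and then at 10.50, 10.46 and 10.14. The lines did not overlap on either set. The lowest LCCTam value of each came from passage 10, the array that stood apart in RNA quality. The differences were 0.36 and 0.46, and 0.47 and 0.57 without that array.

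Over the 13 probe sets, the lines did not overlap for 11, of which 7 were lower and 4 higher in LCCTam. Over all 22215 probe sets tested, 28.7% did not overlap, 15.7% lower and 13.0% higher. In the limma fit of all probe sets, 6 of the 13 had an adjusted p under 0.05. They were the 4 bright AKR1C1 and AKR1C2 sets, lower, and both AKR7A3 sets, higher. Of all probe sets 1494, or 6.73%, passed in that fit, 347 higher (1.56%) and 1147 lower (5.16%), and after quantile normalization 727 higher and 967 lower. Since the family was chosen from this contrast, nothing is read from its count. The count of lower sets changed with the arrays used. It was 0 of 13 without SUM44 replicate 2 (passage 75), without LCCTam replicate 1 (passage 8) or without LCCTam replicate 2 (passage 9), and 2 of 13 without LCCTam replicate 3 (passage 10), where 4 were higher. In the same 4 fits 1.61%, 2.12%, 3.03% and 10.8% of all probe sets passed in either direction. Of the 22215 probe sets, 278, 360, 532 and 1456 passed as lower. Without SUM44 replicate 1 (passage 74) or 3 (passage 76), 4 and 5 of the 13 family sets were lower. In those fits 859 and 776 of all probe sets were lower.

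The AKR1C differences depended on the SUM44 passage they were taken from. For the brightest AKR1C1 set, the LCCTam mean minus SUM44 was -4.62 at passage 74, -3.33 at passage 75 and -1.95 at passage 76. For AKR1C2 the corresponding differences were -4.85, -3.54 and -2.16, and for AKR1C3 -4.28, -2.92 and -0.95. For AKR1B10 they were -2.00, -1.04 and 0.44, so that the sign turned at passage 76. The AKR7A3 differences stayed between 0.67 and 0.79 whichever passage was used.

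**Figure D2:**
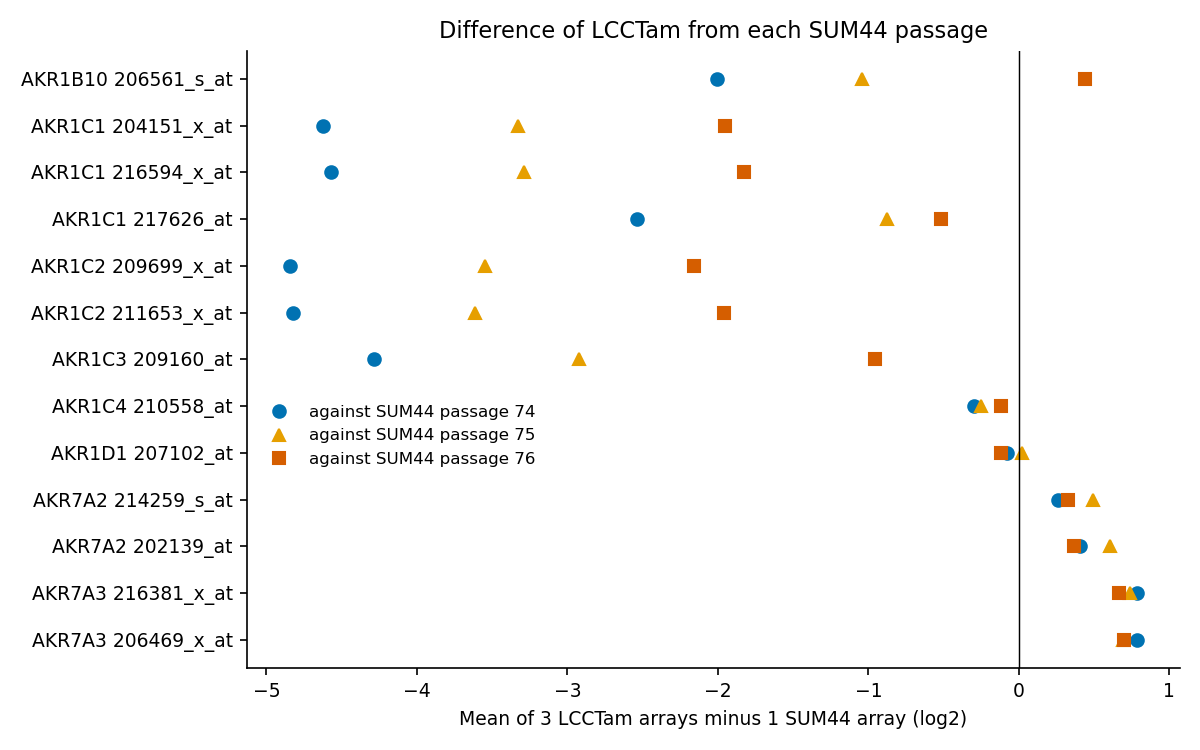
Mean of the 3 LCCTam arrays minus the value of a single SUM44 array (horizontal axis, log2) for each of the 13 probe sets (vertical axis), with 1 marker per SUM44 passage. For AKR1C1, AKR1C2 and AKR1C3 the markers move toward 0 from passage 74 to passage 76, the AKR1B10 marker for passage 76 lies at 0.44, and those of AKR7A2 and AKR7A3 are all above 0.

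Within SUM44, the AKR1C1, AKR1C2, AKR1C3 and AKR1B10 probe sets were lower at each step. From passage 74 to 76 the 5 bright AKR1C sets differed by -3.33 to -2.67. The first step accounted for -1.36 to -1.21 of this and the second for -1.97 to -1.37. The dimmer AKR1C1 set differed by -2.02, most of it (-1.66) in the first step, and AKR1B10 by -2.44. The AKR7A2 and AKR7A3 sets differed by -0.07 to 0.12 between the same passages.

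Few transcripts on the array moved as far. Among all 22215 probe sets, 35 (0.158%) were lower by at least 2 log2 units from passage 74 to 76, and 7 of these were aldo-keto reductase sets, at ranks 3, 5, 9, 11, 12, 21 and 35. The 7 include the bright AKR1C1 and AKR1C2 sets, whose readings cannot be told apart by gene. A lower value at both steps was found for 8 of the 13 sets and for 22.7% of all probe sets, and the median of all was -0.02. Since the family was chosen with its lower values at later SUM44 passages known, nothing is read from these counts. There is 1 array a passage, so the change over SUM44 passages has no replicate check, and passage, culture and array cannot be told apart. The excess of 3' over 5' actin signal on the 3 SUM44 arrays was 1.15, 0.90 and 0.97 in passage order, and their 75th percentiles were 7.78, 7.73 and 7.73.

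**Figure D3:**
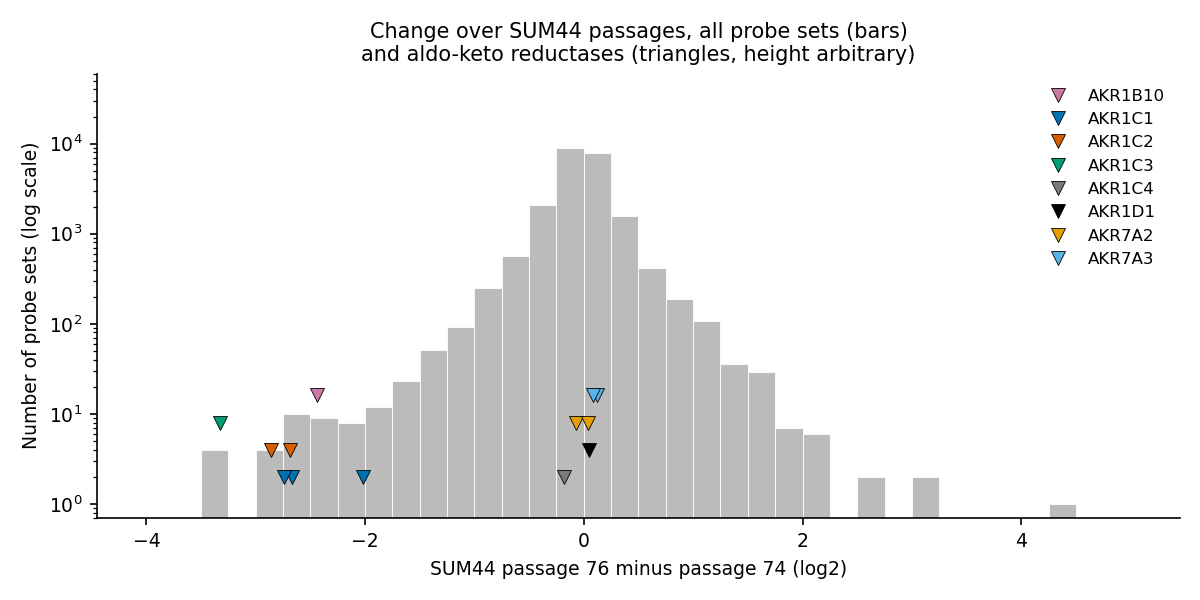
Number of probe sets (vertical axis, log scale) by the difference between SUM44 passage 76 and passage 74 (horizontal axis, log2), over all 22215 probe sets, with the 13 aldo-keto reductase sets as triangles at arbitrary heights. The sets of AKR1C1, AKR1C2, AKR1C3 and AKR1B10 lie between -3.33 and -2.02, and those of AKR1C4, AKR1D1, AKR7A2 and AKR7A3 lie close to 0.

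In LCCTam the bright AKR1C sets differed by -0.07 to 0.28 between passages 8 and 9 and by -1.32 to -0.75 between passages 9 and 10. AKR1B10 differed by -0.47 and -0.72. The lower passage 10 values came from the array with the larger excess of 3' signal, whose part in them was not tested. Without that array the 5 bright AKR1C sets differed between the lines by -3.20 to -2.33, and with it by -3.52 to -2.72.

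Genes that respond to NRF2, as AKR1C genes and AKR1B10 do, were read over the SUM44 passages from a list that leaves out the aldo-keto reductases. That list was chosen with earlier results of these data known, and each passage had 1 array. Whether NRF2 had a part in the values below was not tested. Of 30 listed NRF2 responsive genes 26 were measured, and 15 (57.7%) were lower at both steps, against 23.1% of all genes. From passage 74 to 76, 5 of the 26 (19.2%) were lower by at least 1 log2 unit, against 1.17% of all genes, and 0 were higher by as much, against 1.2%. The list's median was -0.43, against -0.02 for all genes. In LCCTam, passage 10 minus passage 8 had a list median of -0.38, against -0.05 for all genes. LCCTam passage 10 was the array that stood apart in RNA quality. The listed genes were also brighter, at a median percentile of 88.7 in SUM44, against 58.3 for all genes. The 5 genes lower by at least 1 log2 unit in SUM44, named after their values were seen, are all enzymes or transporters of redox defence.

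HMOX1, heme oxygenase, was at 9.80, 7.75 and 6.44 in SUM44 passages 74, 75 and 76 and at 6.81, 7.20 and 6.38 in LCCTam. SLC7A11, the cystine transporter that feeds glutathione synthesis, was at 8.45, 6.36 and 6.31 and then at 6.91, 7.97 and 7.32. GPX2, a glutathione peroxidase, was at 9.72, 9.09 and 7.66 and then at 7.85, 7.35 and 7.43. In all 3 genes passage 74 was the highest array and the LCCTam arrays overlapped the range of SUM44. GSTM3, a glutathione transferase, differed by -1.78 from passage 74 to 76, and TXNRD1, thioredoxin reductase, by -1.24. NQO1, the quinone reductase often read as a marker of NRF2, was at 11.35, 10.80 and 10.61.

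Between the lines few of these genes passed the limma test over all probe sets. Of the 26, 1 rose and 1 fell in LCCTam, and the median difference was -0.05, against 0.02 for all genes, of which 1.98% were higher and 5.58% lower. UGDH, which makes UDP-glucuronic acid, fell by 1.03 on the log2 scale (adjusted p = 0.00466), and OSGIN1, an oxidative stress response gene, rose by 0.64 (adjusted p = 0.031). UGDH was dim, at 5.68, 6.02 and 6.01 in SUM44 and 4.93, 4.77 and 4.89 in LCCTam. Its mean of 5.38 left it out of the fit over probe sets with a mean of at least 6. HMOX1 differed by -1.20 (adjusted p = 0.415) and NQO1 by 0.15 (adjusted p = 0.78). OSGIN1 lost its call without SUM44 replicate 2 or 3 or LCCTam replicate 1 or 2, at adjusted p of 0.0778 to 0.13.

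**Figure D4:**
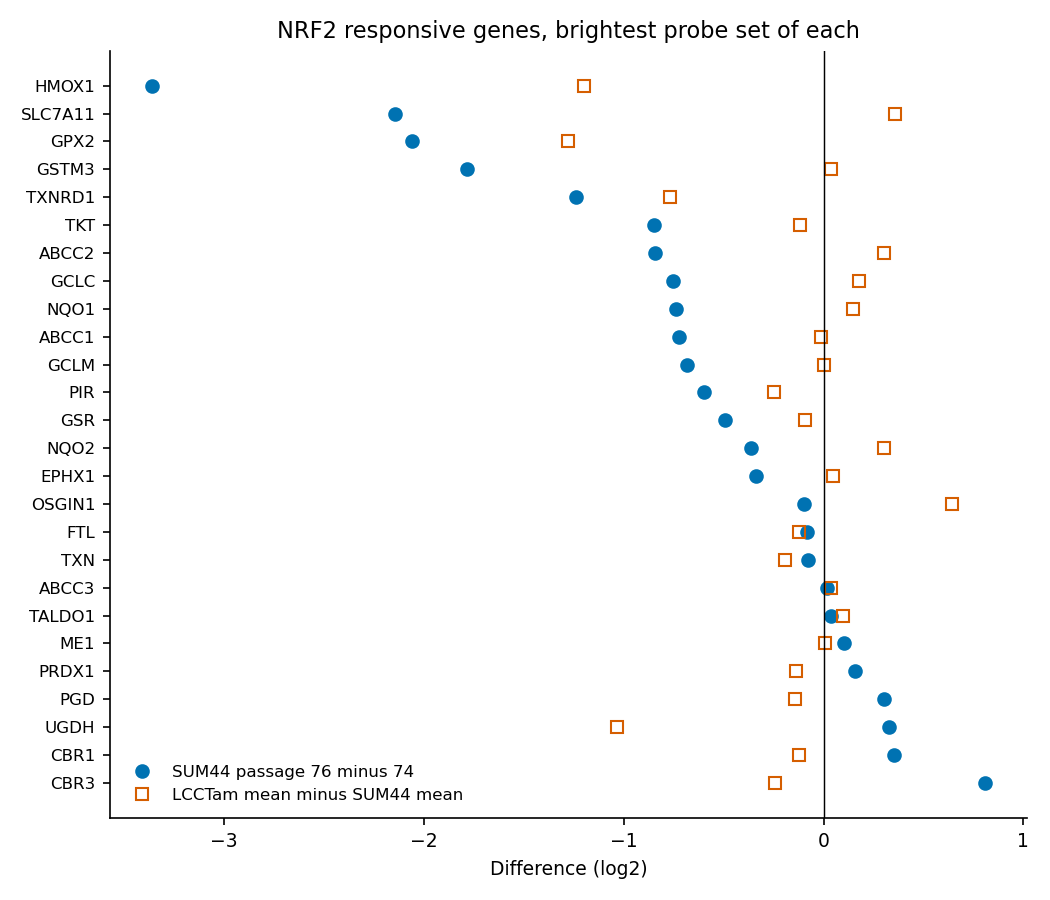
Difference on the log2 scale (horizontal axis) for the 26 measured NRF2 responsive genes (vertical axis, ordered by the first quantity), as SUM44 passage 76 minus passage 74 (filled circles, 1 array each) and as LCCTam mean minus SUM44 mean (open squares, 3 arrays each). HMOX1 has the lowest passage difference at -3.36 and a line difference of -1.20.

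Among 8 measured regulators of NRF2, 0 rose and 2 fell in LCCTam, where 1.98% of all genes were higher and 5.58% lower. NFE2L2, the gene of NRF2 itself, was at 9.15, 9.06 and 9.04 in SUM44 and 8.43, 8.28 and 8.65 in LCCTam, a difference of -0.63 (limma adjusted p = 0.0209). CUL3, the ubiquitin ligase scaffold that with KEAP1 marks NRF2 for degradation, differed by -0.75 (adjusted p = 0.0236). Both calls were lost without any 1 array other than that of LCCTam passage 10, and after quantile normalization (adjusted p = 0.0765 and 0.0522). KEAP1 differed by -0.24 (adjusted p = 0.359).

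Of 29 other measured genes of steroid metabolism, 0 rose and 1 fell between the lines, where 1.98% of all genes were higher and 5.58% lower, and the median was 0.02, as for all genes. The gene was HSD17B7, an enzyme of estradiol and cholesterol synthesis, at -0.45 (adjusted p = 0.0485, and 0.0784 to 0.187 without 1 array other than that of LCCTam passage 10, 0.0872 with an intensity trend in the variance prior and 0.0504 over probe sets with a mean of at least 6). Of the 29, 4 were lower at both SUM44 steps, or 13.8%, against 23.1% of all genes. Only 10 of the 29 had a mean of at least 6, and without detection calls it is unknown which of them were expressed.

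Other carbonyl reductases and aldehyde dehydrogenases went both ways, with 3 of 25 measured genes higher and 3 lower in LCCTam. Of all genes, 1.98% were higher and 5.58% lower. ALDH3B1, an aldehyde dehydrogenase of lipid aldehydes, was at 7.47, 7.53 and 7.58 in SUM44 and 9.10, 9.30 and 8.89 in LCCTam, and rose by 1.57 (adjusted p = 0.00117). DHRS2 and CBR4, short-chain reductases, differed by -0.97 (adjusted p = 0.0366) and -0.85 (adjusted p = 0.0207), and ALDH3A2, the fatty aldehyde dehydrogenase, by -0.82 (adjusted p = 0.0441). The sizes for ALDH3B1 and DHRS2 depended on the probe set, since with sets ending in _x_at or _s_at removed they differed by 2.65 (adjusted p = 0.000669) and -2.11 (adjusted p = 0.00202). The other higher genes, named after their values were seen, were ALDH9A1 and ALDH4A1, at 0.61 and 0.60. On the sets first given, DHRS2, CBR4 and ALDH3A2 each missed the threshold in at least 4 of the 6 fits without 1 array, at adjusted p of 0.0572 to 0.172, and ALDH3A2 also did so without LCCTam replicate 3 (0.0655). Over the SUM44 passages 8 of the 25 (32.0%) were lower at both steps, against 23.1% of all genes. From passage 74 to 76, 0 were lower by at least 1 log2 unit, against 1.17% of all genes, and 1 was higher by as much, against 1.2%. The latter, named after its value was seen, was ALDH5A1, at 1.18.

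In prostaglandin metabolism, where AKR1C3 acts, 2 of 19 measured genes rose and 0 fell, where 1.98% of all genes were higher and 5.58% lower. Only 6 of the 19 had a mean of at least 6. PTGES, the prostaglandin E synthase, was at 7.83, 7.77 and 7.54 in SUM44 and 9.26, 9.64 and 9.31 in LCCTam, and rose by 1.69 (adjusted p = 0.00156). SLCO2A1, the prostaglandin transporter, rose by 1.71 (adjusted p = 0.0155), and its values of 6.61, 6.28 and 5.50 were lower with each SUM44 passage. SLCO2A1 missed the threshold without SUM44 replicate 2 or LCCTam replicate 1 or 2, at adjusted p of 0.0604 to 0.0722.

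The potassium channel beta subunits KCNAB1, KCNAB2 and KCNAB3, which belong to the same protein superfamily, had 0 of 3 genes passing in limma, and KCNAB2 had the largest difference at -0.14 (adjusted p = 0.34). The unadjusted p was under 0.05 for 0 of the 3. Only 1 of the 3 had a mean of at least 6.

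Of the 10 nearest measured genes on either side of the AKR1C cluster, by their order in the RefSeq gene table, 1 rose and 0 fell between the lines, where 1.98% of all genes were higher and 5.58% lower, and the median difference was -0.11. ASB13, a ubiquitin ligase adaptor, was the 1 gene, and rose by 1.56 from 7.76, 8.03 and 7.90 to 9.28, 9.74 and 9.35 (adjusted p = 0.00258). Over SUM44 passages 3 of the 20 were lower at both steps, against 23.1% of all genes, and 0 were lower by as much as 1 log2 unit, against 1.17%.

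The genes whose profile over the 6 arrays came nearest to that of the brightest AKR1C1 set were APOD, RGS2, SCGB2A2, TACC1 and DNAJC15. Nearness was the root mean square difference after each profile was centred on its mean, over 1 probe set a gene and with the aldo-keto reductases left out. It was 0.31 for APOD, which encodes apolipoprotein D, 0.36 for RGS2, a regulator of G protein signalling, and 0.39 for SCGB2A2, which encodes mammaglobin. It was 0.41 for TACC1 and 0.43 for DNAJC15. By the same measure AKR1C2 was at 0.12, AKR1C3 at 0.39 and AKR1B10 at 1.23. RGS2 was at 8.97, 8.66 and 6.82 in SUM44 and 5.62, 5.08 and 4.79 in LCCTam, and DNAJC15 at 8.44, 8.08 and 6.58 and then at 4.92, 4.63 and 4.76. Both were lower at each SUM44 step, with the larger step at passage 76, and neither overlapped between the lines. Since the genes were picked on these same 6 arrays for nearness to AKR1C1, a shared fall and separation follow from the choice.

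**Figure D5:**
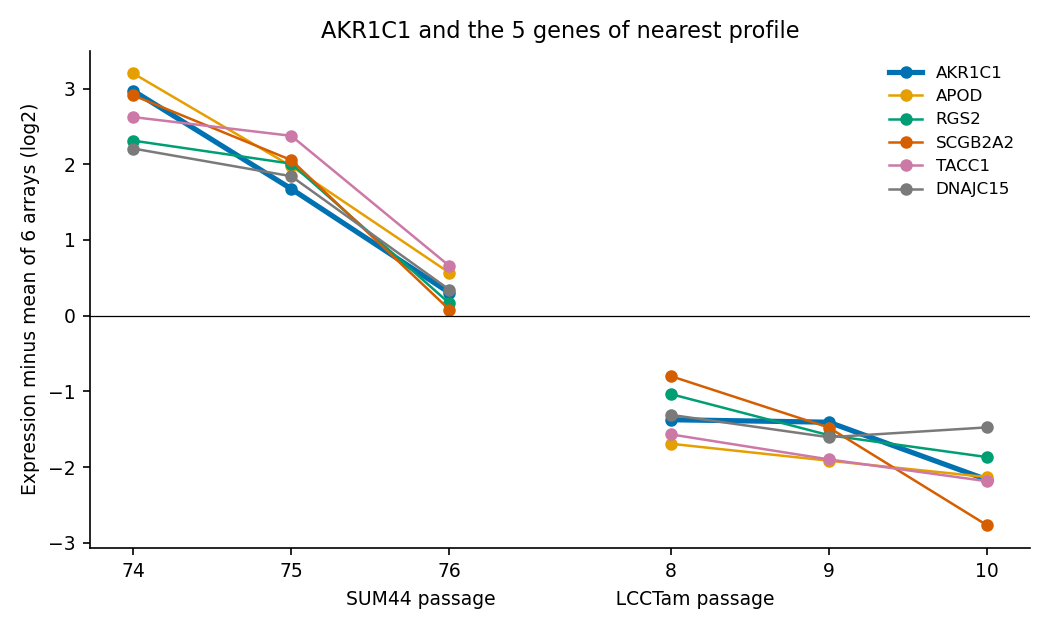
Log2 expression minus the mean of the 6 arrays (vertical axis) for AKR1C1 (thick line) and the 5 genes of nearest profile on each array (horizontal axis, passage of SUM44 and then of LCCTam). All 6 profiles lie above 0 at each SUM44 passage and below 0 at each LCCTam passage, and each is lower at SUM44 passage 76 than at passage 74. The 5 genes were picked on these same arrays for this likeness.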

How the data were processed

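Total RNA of 6 samples was hybridised to 1 Affymetrix array each. The deposited log2 values were made by the authors with RMA in Bioconductor, per the series design text and the submitters' processing notes, whose version and chip definition these sources leave unstated. The number of arrays limits the precision. Of 22283 probe sets, 68 controls were left out. Symbols came from the platform annotation, 19065 probe sets with 1 symbol each, and 19053 were updated by Entrez identifier with RefSeq (GRCh38.p14). The brightest probe set stood for a gene outside the family.

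Differences are LCCTam minus SUM44. The fit used limma 3.58.1 (lmFit, eBayes; R 4.3.3) over 22215 probe sets, with Benjamini-Hochberg adjustment, and an adjusted p under 0.05 passed. Adjusted p-values are from this fit unless an alternative is named beside them. The lines share no passage number, so samples were not paired. In a simulation of this comparison, LCCTam against SUM44, on 22215 probe sets, the fit recovered 28% of changes of 0.5, 70% of 1, 98% of 2 and 100% of 3 log2 units, with 3 false calls of 151. It drew independent normal values, with the same SD in both lines and 200 changed probe sets. Passage trends and an array of differing RNA quality were not simulated, so these rates need not hold for the real arrays. The family and gene lists were chosen with earlier results of these data known. The rule named every family probe set, up to 4 passing genes a list (or the largest difference) and the 5 profiles nearest to AKR1C1. Promoter windows were searched with regular expressions and aligned with Biopython 1.88 (match 1, mismatch -1, gap opening -2.5, gap extension -0.5). Alternatives left out each array, changed normalization, weights, variance prior, intensity filter or probe set choice, or added passage.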

Additional observations from a re-analysis of the deposited data

How the results depend on the processing

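The count of passing aldo-keto reductase probe sets, 6 of 13, was 2 to 7 when single arrays were left out and 11 with array weights. For all probe sets the count of 1494 was 357 to 2398 when single arrays were left out and 6828 with array weights. Genes of the lists beside the cell type markers passed in 14 cases, in 4 to 16 when single arrays were left out, and in 36 with array weights. Differences of the 13 family probe sets kept their sign in each of the 9 alternatives run for them. For the 11 sets whose lines did not overlap, leaving out or weighting arrays could not have turned the sign. The added passage term was centred within each line and left the differences unchanged. Nothing is therefore read from the kept signs. With probe sets ending in _x_at or _s_at removed, COL3A1 differed by 0.020 in place of -4.42, and the cause was not tested. No paired analysis was possible because the lines share no passage number. Signal against background is unknown, which limits what can be said of AKR1C4 and AKR1D1.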
